A study of Mus musculus with 16 samples.

Results

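The loci described here surround the genes of 4 nuclear receptors, and in mouse fat cells they held 42 of the 30588 listed PPARγ peaks and 41 of the 30519 listed C/EBPα peaks. A peak was a member when its centre lay in 1 of 4 windows of the mm9 build. These windows are chr2:27480000-27670000 for Rxra, chr11:98760000-98860000 for Rara, chr2:90990000-91080000 for Nr1h3 and chr18:39520000-39800000 for Nr3c1. Of both lists together, 83 of 61107 peaks were members. The rule uses position alone and no measured value, but the members were chosen with earlier results of these data known.

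The measurements are from chromatin immunoprecipitation and sequencing, in which DNA fragments held by a protein are pulled down and counted. The cells were adipocytes of 3T3-L1, an established mouse preadipocyte line, so all cells come from 1 line. The cells used here were at day 7 after induction with a cocktail that held dexamethasone, a ligand of the glucocorticoid receptor. Cells received either 1 µM rosiglitazone with 0.1% DMSO or 0.1% DMSO alone, in both cases for 1 h. Rosiglitazone is a synthetic PPARγ ligand. Each factor, namely PPARγ, C/EBPα, MED1 and CBP, had 1 deposited column per treatment. The PPARγ columns name no replicate, although the labels list 2 PPARγ samples per treatment. The differences between treatments therefore have no replicate check, no p-value is given, and every interval covers counting error only.

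PPARγ is the ligand-activated receptor at the head of the adipocyte programme, and C/EBPα works beside it at many fat cell enhancers. PPARγ binds DNA as a dimer with an RXR, and Rxra codes for RXRα, the partner that liver X receptors and retinoic acid receptors also use. Nr1h3 codes for LXRα, an oxysterol-sensing receptor of sterol and lipid metabolism, and Rara for RARα, which binds retinoic acid. Nr3c1 codes for the glucocorticoid receptor, which works without an RXR and is active early in fat cell differentiation when dexamethasone is given. MED1 is the Mediator subunit that binds liganded nuclear receptors, and CBP acetylates histones.

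Promoter sequence is shown for Rxra and Nr1h3 because these are the promoters in which a searched motif was present. RefSeq promoters on GRCm38.p6 matched Rxra (2 promoters), Rara (4) and Nr1h3 (2). That build differs from the mm9 build of the peaks, so no peak is placed on these bases. The lines give the 100 bases before a RefSeq start site, 5′ to 3′ on the strand of the gene. Capitals mark AGGTCA, the core hexamer of nuclear receptor sites, on either strand, in Rxra, and in Nr1h3 the pattern TTGCNNCA on the opposite strand. TTGCNNCA was searched as a C/EBP type of pattern. It begins with TTGC, as the C/EBP palindrome TTGCGCAA does, but it cannot match that palindrome. Its matches are therefore not shown to be C/EBP sites.
Rxra, chr2:27709192-27709291, + strand, GRCm38.p6: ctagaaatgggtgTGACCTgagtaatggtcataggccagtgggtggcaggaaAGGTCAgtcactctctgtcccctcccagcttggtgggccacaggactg
Nr1h3, chr2:91195117-91195216, - strand, GRCm38.p6: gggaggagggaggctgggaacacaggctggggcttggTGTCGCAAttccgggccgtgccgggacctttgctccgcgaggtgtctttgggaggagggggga
In the 250 bases before the start site, the hexamer AGGTCA occurred on at least 1 strand in 14.0% of all 32851 promoters searched. Among the 8 promoters of the 3 genes it occurred in 1, that of Rxra shown, at bases -87 to -82 and -48 to -43. TTGCNNCA occurred in 9.59% of all promoters and in both Nr1h3 promoters. In the promoter printed its bases were -63 to -56. The other Nr1h3 promoter holds the same bases, there at -144 to -137. None of the 8 held a direct repeat of AGGTCA with 1, 4 or 5 bases between, written AGGTCANAGGTCA (0.0335% of all promoters), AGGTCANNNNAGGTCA (0.0152%) and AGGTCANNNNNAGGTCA (0.00913%). Each of these repeats contains the hexamer. Neither TTGCGCAA, the C/EBP palindrome (0.164%), nor the glucocorticoid receptor type of site, AGAACA and TGTTCT with 3 bases between (0.00913%), was present in the 8. All motifs were searched on both strands.

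A tag stands for 1 sequenced fragment. The deposited values are scaled per library, and the ratios given here are of values on that scale, rosiglitazone over DMSO. They differ from the plain quotient of tags because the libraries differ in depth: the DMSO library was 2.19 times the deeper one for MED1 and 2.74 times for CBP, and the rosiglitazone library 1.73 times for C/EBPα. PPARγ depths were close, at a quotient of 1.06. Over the whole PPARγ list the summed PPARγ value was 1.53 times as high with rosiglitazone as in DMSO, so each locus is also given relative to the rest of its list. The median log2 ratio of the list was 0.50.

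The 4 loci carried peaks at different density and of different rank. PPARγ peaks numbered 13 in the Rxra window, 17 in the Rara window and 6 each in the Nr1h3 and Nr3c1 windows, or 6.84, 17.0, 6.67 and 2.14 per 100 kb. C/EBPα peaks numbered 16, 9, 5 and 11 in the same order, or 8.42, 9.0, 5.56 and 3.93 per 100 kb. The windows are wider than the genes: Rxra spans 86.9 kb on GRCm38 in a window of 190 kb, Rara 47.1 kb in 100 kb, Nr1h3 18.8 kb in 90 kb and Nr3c1 109 kb in 280 kb. In the gene order of RefSeq, the nearest neighbours are Wdr5 and Col5a1 for Rxra, Cdc6 and Gjd3 for Rara, Madd and Acp2 for Nr1h3, and Fgf1 and Pabpc2 for Nr3c1. Which gene a peak serves was not tested.

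**Figure D1:**
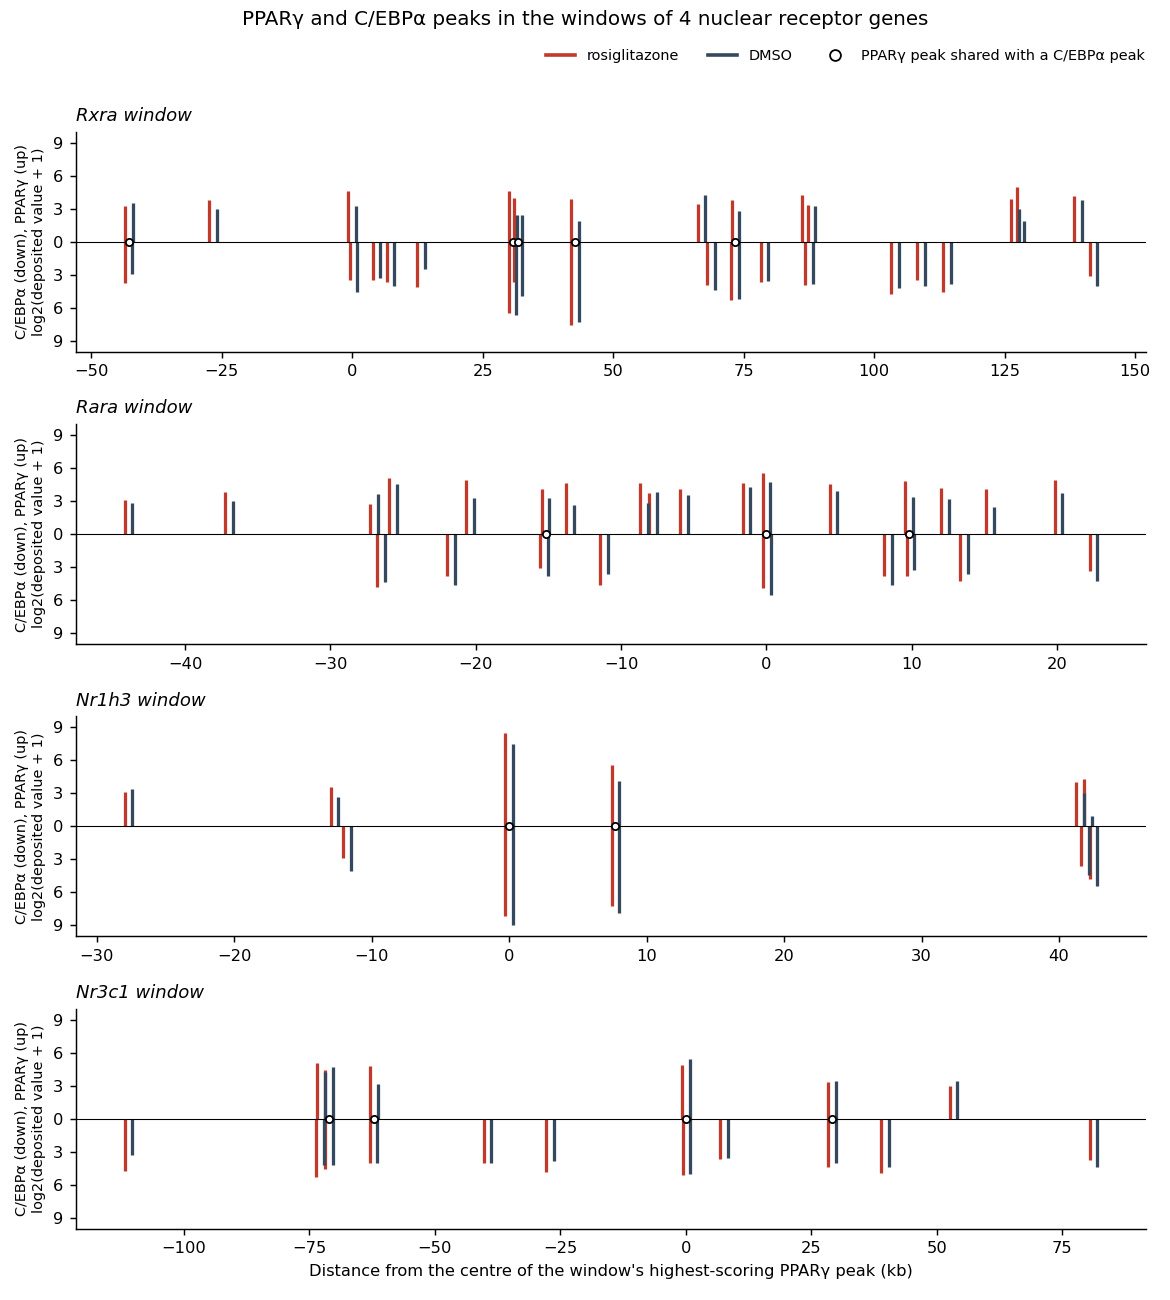
Position and height of the member peaks. The x axis gives the distance in kb from the highest-scoring PPARγ peak of each window, and the y axis the log2(deposited value + 1) of PPARγ upward at the 42 PPARγ peaks and of C/EBPα downward at the 41 C/EBPα peaks, with rosiglitazone as the left and DMSO as the right stem of each pair. A single tall site with both factors stands in the Nr1h3 window, while the 17 PPARγ peaks of the Rara window are lower than that site and close together.

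By the authors' peak score, 4 of the 42 PPARγ members lay in the top decile, near the share of the list, 3089 of 30588. These were 2 in the Nr1h3 window and 1 each in the Rara and Nr3c1 windows. None of the 13 Rxra peaks lay there. The median score percentile was 44.0 for Rxra, 60.4 for Rara, 33.3 for Nr1h3 and 80.0 for Nr3c1. The C/EBPα members had medians of 39.9, 51.8, 83.6 and 62.4 in the same order. Of the 41, 4 were in the top decile, 2 in the Rxra and 2 in the Nr1h3 window, where 3074 of the 30519 listed peaks were. Nr1h3 thus had the strongest single sites of both factors, and the peaks of Rxra that ranked high were C/EBPα peaks.

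**Figure D2:**
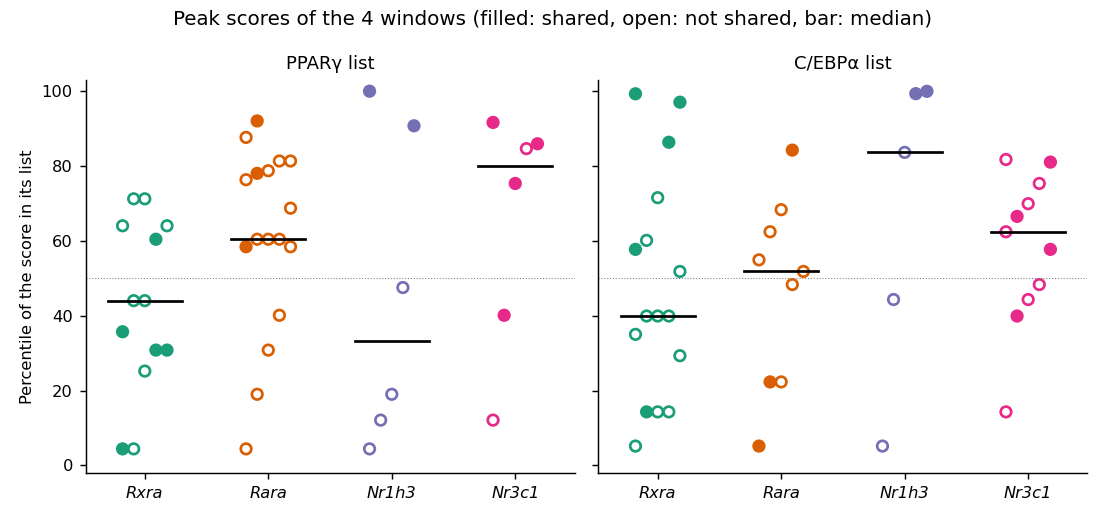
Percentile of each member's peak score within its own list, on the y axis, by window on the x axis, for the PPARγ list and the C/EBPα list. Filled points share at least 1 bp with a peak of the other list, open points do not, and the bar is the median of the window; both main Nr1h3 sites are shared and lie at percentile 90.7 or higher.

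Sharing of sites between the factors was close to that of the whole lists. At least 1 bp was in common with a C/EBPα peak for 14 of the 42 PPARγ members, where 36.1% of the PPARγ list was shared. These were 5 of 13 in the Rxra window, 3 of 17 in the Rara window, 2 of 6 in the Nr1h3 window and 4 of 6 in the Nr3c1 window. The exact 95% interval of the share over the 4 loci, 19.6 to 49.5%, held the share of the list. Of the 41 C/EBPα members 14 were shared, where 36.2% of the C/EBPα list was. Another PPARγ peak lay within 10 kb for 32 of the 42 PPARγ members, where 54.8% of the list had one. These were 8 of 13 at Rxra, all 17 at Rara, 4 of 6 at Nr1h3 and 3 of 6 at Nr3c1, so the share was highest at Rara. The 95% interval for the members was 60.5 to 87.9%. It takes peaks as independent, although 2 neighbouring peaks count for each other. For C/EBPα, 32 of 41 members had such a neighbour, where 50.2% of the list had one, with an interval of 62.4 to 89.4% and the same limit. By window these were 14 of 16, 9 of 9, 4 of 5 and 5 of 11 in the same order. The share of shared peaks in single windows rests on 5 to 17 peaks.

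Summed over its peaks, each of the 3 loci of RXRα and its partners held more PPARγ with rosiglitazone than in DMSO, and by more than the rest of the list did. The 13 Rxra peaks held 251 PPARγ tags with rosiglitazone and 107 in DMSO, a ratio of 2.22 (95% counting interval 1.76 to 2.81). The 17 Rara peaks held 437 tags with rosiglitazone and 218 in DMSO, a ratio of 1.90 (1.61 to 2.24). The 6 Nr1h3 peaks held 553 tags with rosiglitazone and 243 in DMSO, a ratio of 2.15 (1.85 to 2.51). Relative to the rest of the list these ratios were 1.45 (1.16 to 1.82) for Rxra, 1.24 (1.06 to 1.46) for Rara and 1.41 (1.21 to 1.64) for Nr1h3. The comparison is not matched for score. The median log2 ratio was 0.74 in the top score decile and 0.50 over the list. At Nr1h3, 79.3% of the tags lay at 1 top-decile peak, and 61.3% of that decile had a lower log2 ratio. Without that peak Nr1h3 was 1.65 of the rest of the list (1.17 to 2.33).

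Summed over the PPARγ peaks of the glucocorticoid receptor gene, PPARγ did not differ between treatments beyond counting error. The 6 Nr3c1 peaks held 149 PPARγ tags with rosiglitazone and 127 in DMSO, a ratio of 1.11 (0.870 to 1.42). Relative to the rest of the list this was 0.727 (0.574 to 0.921). Set directly against Nr3c1, the ratio was 2.0 times as high at Rxra (1.44 to 2.77), 1.71 times at Rara (1.28 to 2.28) and 1.94 times at Nr1h3 (1.46 to 2.57). Between the other 3 loci every such interval held 1. At the PPARγ peaks the lower value of Nr3c1 relative to the list rests on 1 peak, chr18:39712819-39713005: without it the locus had a ratio of 1.38 (1.02 to 1.86), which was 0.902 of the rest of the list (0.677 to 1.20). At the 11 C/EBPα peaks PPARγ was 0.706 of the rest of the C/EBPα list (0.559 to 0.891), and 0.674 without the peak on the same site (0.515 to 0.882). Against Nr3c1 without that peak, a setting chosen after seeing the data, the ratio was 1.61 times as high at Rxra (1.12 to 2.32), 1.56 times at Nr1h3 (1.13 to 2.16) and 1.38 times at Rara (0.991 to 1.91).

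Counted peak by peak, the members could not be told from the list at this number. On the log2(value + 1) scale, 17 of the 42 PPARγ members were at least 2-fold higher with rosiglitazone, a share of 40.5% (95% interval 25.6 to 56.7), where 30.0% of all PPARγ peaks were. By locus these were 6 of 13 for Rxra, 7 of 17 for Rara, 3 of 6 for Nr1h3 and 1 of 6 for Nr3c1. No member was at least 2-fold lower, where 4.43% of all PPARγ peaks were, and 0 of 42 allows a share of up to 8.41%. The counting interval of the ratio lay wholly above 1 at 18 of the 42 members (28.1% of the list) and wholly below 1 at 0 (3.83% of the list).

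**Figure D3:**
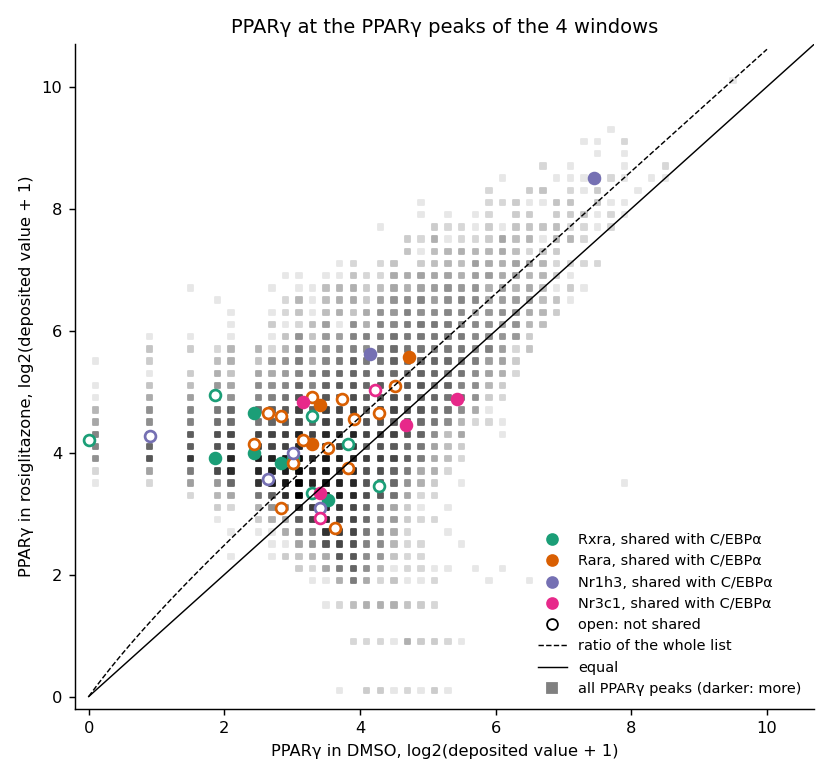
PPARγ at the 42 PPARγ members, coloured by locus, with log2(deposited value + 1) in rosiglitazone on the y axis and in DMSO on the x axis. Filled points are shared with C/EBPα, grey shading counts all 30588 PPARγ peaks, the solid line marks equal values and the dashed line the ratio of the whole list, 1.53; 33 of the 42 members lie above the line of equality, and 4 of the 6 Nr3c1 peaks lie below it.

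**Figure D4:**
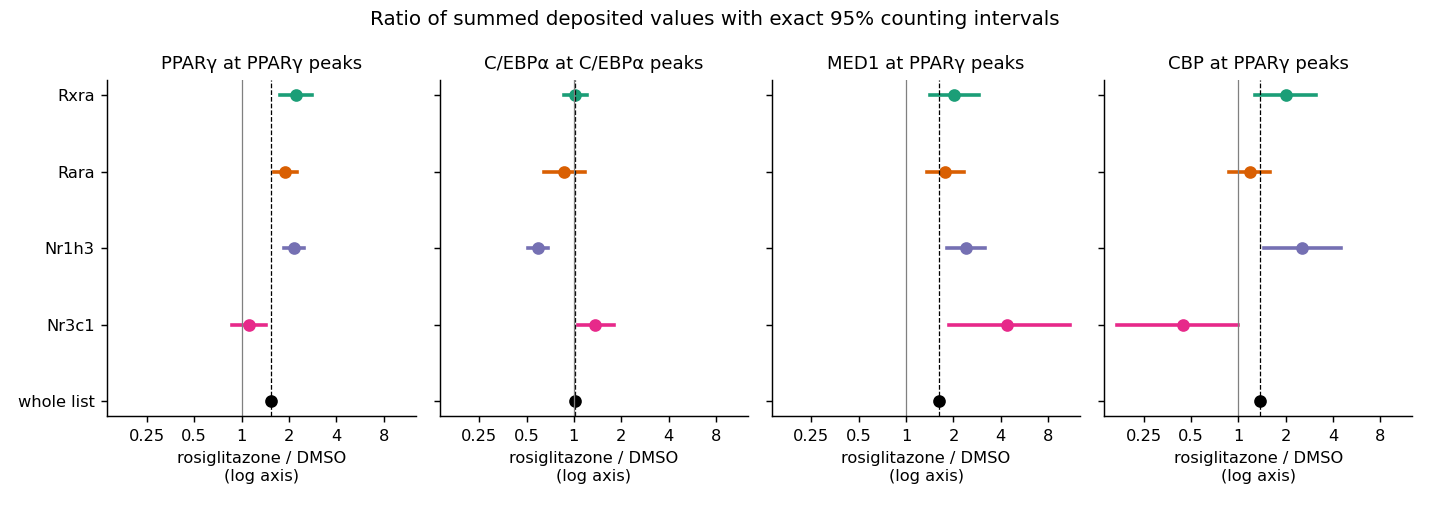
Ratio of summed values, rosiglitazone over DMSO, on a log axis, for PPARγ, MED1 and CBP at PPARγ peaks and for C/EBPα at C/EBPα peaks, by locus and for the whole list. Points are ratios and bars the exact 95% counting intervals; PPARγ was 1.53 for the list, above it at Rxra, Rara and Nr1h3 and 1.11 at Nr3c1, while C/EBPα at Nr1h3 was 0.594.

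The Nr1h3 locus was dominated by 1 site, chr2:91035237-91035423. It ranked 20 of 30588 in the PPARγ list with a score of 272.6, and held 79.3% of the PPARγ tags of the 6 peaks. PPARγ there counted 433 tags with rosiglitazone and 198 in DMSO, deposited values of 359.98 with rosiglitazone and 174.11 in DMSO, and a ratio of 2.07 (1.74 to 2.46). The C/EBPα peak chr2:91035216-91035446, whose centre lay 1 bp away, ranked 27 of 30519 in its own list with a score of 361.1. It counted 221 C/EBPα tags with rosiglitazone and 225 in DMSO, values of 281.48 with rosiglitazone and 496.82 in DMSO, and a ratio of 0.567 (0.468 to 0.685). PPARγ was thus higher and C/EBPα lower with the ligand at the same bases, both beyond counting error.

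The next Nr1h3 site showed the same opposed pair of ratios. At chr2:91042967-91043153 PPARγ counted 58 tags with rosiglitazone and 19 in DMSO, a ratio of 2.89 (1.69 to 5.13). The C/EBPα peak on it, chr2:91042954-91043184, ranked 219 and counted 119 C/EBPα tags with rosiglitazone and 104 in DMSO, a ratio of 0.660 (0.503 to 0.867). All 5 C/EBPα peaks of the Nr1h3 window were lower with rosiglitazone, and together they held 375 tags with rosiglitazone and 364 in DMSO, a ratio of 0.594 (0.513 to 0.688). The whole C/EBPα list had a ratio of 1.01. Relative to the rest of that list Nr1h3 stood at 0.586 (0.508 to 0.677), and without its highest peak at 0.631 (0.501 to 0.793). In the top score decile of the C/EBPα list, 10.6% of peaks had a lower log2 ratio than the first of these sites and 19.4% a lower one than the other. PPARγ at both sites was nearer the middle of its own top decile, with 61.3% and 76.5% of those peaks below.

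MED1 was also higher with rosiglitazone at both of these Nr1h3 sites. MED1 at the first site counted 55 tags with rosiglitazone and 37 in DMSO, a ratio of 3.25 (2.11 to 5.08), and at the other 55 tags with rosiglitazone and 52 in DMSO, a ratio of 2.32 (1.56 to 3.45). CBP at the first site counted 22 tags with rosiglitazone and 18 in DMSO, a ratio of 3.35 (1.72 to 6.63), and was too sparse at the other, with 4 tags with rosiglitazone and 6 in DMSO. Over the 6 PPARγ peaks MED1 had a ratio of 2.40 (1.82 to 3.16), which was 1.48 of the rest of the list (1.13 to 1.93), while the median over the peaks was 1.22. CBP had a ratio of 2.55 (1.46 to 4.47) and a median over the peaks of 1.15, but without the first site only 5 tags with rosiglitazone and 11 in DMSO were left, with a ratio of 1.25 (0.340 to 3.89).

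The other 4 PPARγ peaks of Nr1h3 were weak, with 19 to 26 tags each. At chr2:91077366-91077552 PPARγ counted 22 tags with rosiglitazone and 1 in DMSO, a ratio of 20.8 with a wide interval (3.36 to 858). This peak was the one with the highest ratio in the window, and its score stood at percentile 12.1. MED1 there was 0 tags with rosiglitazone and 9 in DMSO, and the interval of its ratio, 0 to 1.11, held 1. The lowest ratio was at chr2:91007584-91007770, with 9 tags with rosiglitazone and 11 in DMSO, 0.774 (0.283 to 2.05).

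Rxra, which codes for the dimer partner of PPARγ, had no single dominant PPARγ peak. Its highest 2 by score, tied at 16.2, were chr2:27527167-27527353, with 28 PPARγ tags with rosiglitazone and 10 in DMSO and a ratio of 2.65 (1.25 to 6.11), and chr2:27655482-27655668. The second counted 36 tags with rosiglitazone and 3 in DMSO, values of 29.93 with rosiglitazone and 2.64 in DMSO, and a ratio of 11.3 (3.58 to 57.6). MED1 there was 10 tags with rosiglitazone and 4 in DMSO, a ratio of 5.47 (1.58 to 23.9). In the same score decile of the list, 1.11% of peaks had a higher log2 ratio of PPARγ. Without this peak the Rxra locus had a PPARγ ratio of 1.95 (1.54 to 2.49), which was 1.28 of the rest of the list (1.01 to 1.62). The lower bound of 1.01 is close to 1. That value also keeps a weak peak, chr2:27614041-27614227, with 21 PPARγ tags with rosiglitazone and 0 in DMSO. Whether Rxra exceeds the list without both peaks was not tested.

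At chr2:27614041-27614227 PPARγ counted 21 tags with rosiglitazone and 0 in DMSO, at least 6.62-fold higher when DMSO is set at 3 tags; the exact interval allows a ratio as low as 4.92. Both coactivators were counted at this site in both treatments. MED1 counted 9 tags with rosiglitazone and 26 in DMSO, a ratio of 0.758 (0.313 to 1.67), and CBP 13 tags with rosiglitazone and 12 in DMSO, a ratio of 2.97 (1.25 to 7.13). In DMSO, 39.4% of the 66 MED1 tags at the Rxra PPARγ peaks thus lay at a peak where PPARγ had none. At chr2:27500462-27500648 MED1 counted 20 tags with rosiglitazone and 10 in DMSO, a ratio of 4.38 (1.96 to 10.5), beside 16 PPARγ tags with rosiglitazone and 8 in DMSO, 1.89 (0.764 to 5.10). The lowest PPARγ ratio of the locus was at chr2:27594077-27594263, with 12 tags with rosiglitazone and 21 in DMSO, 0.540 (0.242 to 1.15).

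Over the 13 PPARγ peaks of Rxra, MED1 had a ratio of 2.02 (1.41 to 2.91) and CBP 2.01 (1.28 to 3.11). The medians over the peaks were lower, 1.09 for MED1 and 1.00 for CBP. Relative to the rest of the list these were 1.24 (0.879 to 1.76) and 1.45 (0.957 to 2.21), and both intervals held 1. The peak where PPARγ was at 0 in DMSO bears on both: without it MED1 had a ratio of 2.85 (1.85 to 4.41) and CBP 1.71 (0.997 to 2.90), which were 1.75 (1.16 to 2.64) and 1.24 (0.754 to 2.05) of the rest of the list.

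The strongest C/EBPα site of Rxra was a site of weak PPARγ. The C/EBPα peak chr2:27569769-27569999 ranked 228 of 30519 and held 36.4% of the C/EBPα tags of the locus. It counted 150 C/EBPα tags with rosiglitazone and 70 in DMSO, a ratio of 1.24 (0.925 to 1.67). PPARγ in the overlapping peak counted 17 tags with rosiglitazone and 3 in DMSO, a ratio of 5.36 (1.55 to 28.5), and that PPARγ peak stood at percentile 4.42 of its list by score. CBP there counted 10 tags with rosiglitazone and 14 in DMSO, a ratio of 1.96 (0.779 to 4.74). A further C/EBPα peak, chr2:27557877-27558107, ranked 906 and was picked out after its values were seen. It held 67 C/EBPα tags with rosiglitazone and 45 in DMSO, a ratio of 0.859 (0.580 to 1.28), while the PPARγ peak on it held 29 PPARγ tags with rosiglitazone and 5 in DMSO, a ratio of 5.48 (2.10 to 18.1), and stood at percentile 60.4 by score.

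Over the 16 C/EBPα peaks of Rxra, C/EBPα was level, with a ratio of 1.02 (0.865 to 1.21). At the same 16 peaks PPARγ counted 161 tags with rosiglitazone and 55 in DMSO, a ratio of 2.77 (2.03 to 3.83), which was 1.75 of the rest of the C/EBPα list (1.29 to 2.37). MED1 at these peaks had a ratio of 2.65 (1.81 to 3.91), or 1.86 of the rest of the list (1.29 to 2.68). The highest C/EBPα ratio among those with at least 20 tags was 1.73 (0.658 to 5.33), at chr2:27641504-27641734, with 18 tags with rosiglitazone and 6 in DMSO. The lowest was 0.399 (0.151 to 1.01), at chr2:27558878-27559108, with 9 tags with rosiglitazone and 13 in DMSO.

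Rara carried the densest row of PPARγ peaks among the 4 loci, 17 within 64.0 kb with a median gap of 4.47 kb. All scored far below the main Nr1h3 site, and their median percentile in the list was 60.4. The highest, chr11:98812644-98812830, ranked 2426 with a score of 35.9, at percentile 92.0. It counted 56 PPARγ tags with rosiglitazone and 29 in DMSO, a ratio of 1.83 (1.15 to 2.97), with MED1 at 21 tags with rosiglitazone and 19 in DMSO, 2.42 (1.24 to 4.76), and CBP at 14 tags with rosiglitazone and 15 in DMSO, 2.56 (1.15 to 5.69). It held 13.0% of the PPARγ tags of the locus, and without it the PPARγ ratio was 1.91 (1.60 to 2.28). The PPARγ ratio was above 1 at 15 of the 17 peaks, where 70.5% of the list was higher. It was highest at chr11:98799143-98799329, with 29 tags with rosiglitazone and 6 in DMSO, 4.57 (1.86 to 13.5), and lowest at chr11:98785618-98785804, with 7 tags with rosiglitazone and 13 in DMSO, 0.509 (0.172 to 1.37).

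MED1 and CBP ratios varied between the Rara peaks, with wide intervals. At chr11:98804237-98804423 PPARγ counted 28 tags with rosiglitazone and 7 in DMSO, 3.78 (1.61 to 10.3), while MED1 counted 7 tags with rosiglitazone and 26 in DMSO, 0.590 (0.216 to 1.39), and CBP 8 tags with rosiglitazone and 25 in DMSO, 0.878 (0.342 to 2.01). At chr11:98797479-98797665 CBP counted 1 tag with rosiglitazone and 29 in DMSO, 0.0946 (0.00232 to 0.571), beside MED1 at 11 tags with rosiglitazone and 6 in DMSO, 4.01 (1.36 to 13.2). In the C/EBPα peak that overlaps it by 98 bp CBP was 4 tags with rosiglitazone and 14 in DMSO, 0.784 (0.188 to 2.50), so the size of this CBP difference depends on which peak bounds are used. At chr11:98786922-98787108 MED1 had a ratio of 2.79 (1.18 to 6.78) and CBP 1.60 (0.765 to 3.22). At chr11:98824960-98825146 the ratios were 2.53 (1.12 to 5.77) for MED1 and 1.55 (0.722 to 3.19) for CBP. At both of these peaks the MED1 interval lay above 1 and the CBP interval held 1. The MED1 and CBP intervals overlapped, so these peaks do not tell the coactivators apart. Summed over the 17 peaks, MED1 had a ratio of 1.78 (1.36 to 2.32) and CBP 1.18 (0.875 to 1.58), or 1.09 (0.842 to 1.42) and 0.856 (0.644 to 1.14) of the rest of the list.

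C/EBPα at the 9 Rara C/EBPα peaks counted 119 tags with rosiglitazone and 79 in DMSO, a ratio of 0.869 (0.648 to 1.17). The highest of these peaks, chr11:98812679-98812909, overlapped the highest PPARγ peak and held 22 C/EBPα tags with rosiglitazone and 20 in DMSO, 0.635 (0.330 to 1.23). Among the peaks with at least 20 tags, the highest ratio was 2.19 (0.792 to 7.51), at chr11:98801412-98801642. The lowest, 0.524 (0.200 to 1.36), was tied between chr11:98790926-98791156 and chr11:98821005-98821235. None of these differed between treatments beyond counting error.

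**Figure D5:**
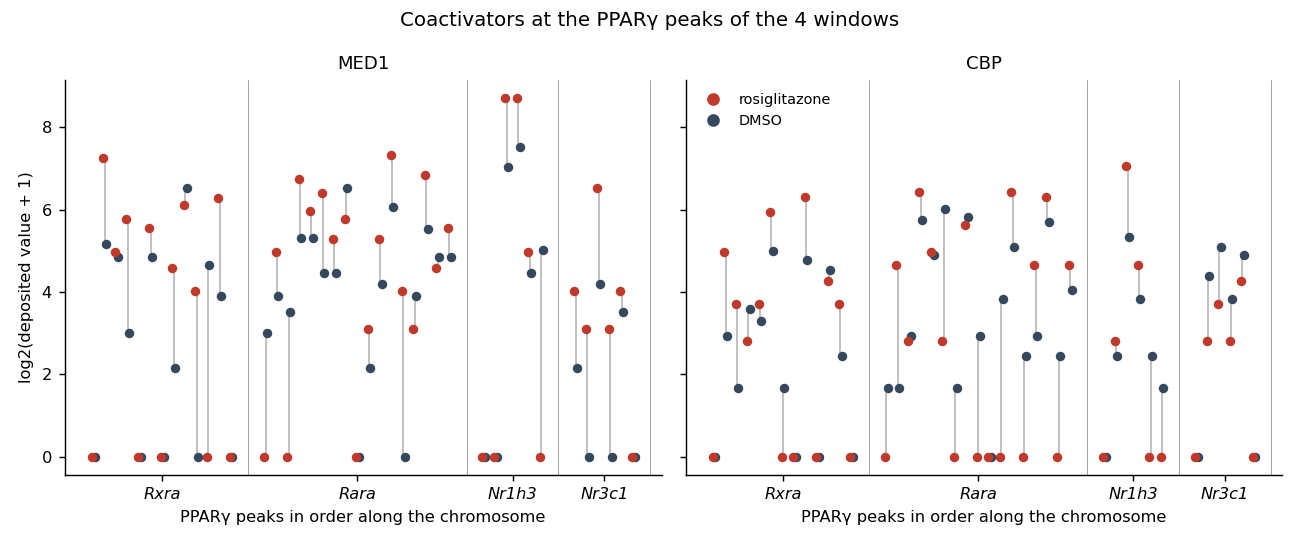
MED1 and CBP at the 42 PPARγ members, in order along the chromosome and grouped by locus on the x axis, as log2(deposited value + 1) on the y axis, with rosiglitazone as the left and DMSO as the right point of each pair. MED1 reaches 420.88 deposited units with rosiglitazone at both main Nr1h3 sites, and CBP is above its DMSO value at none of the 6 Nr3c1 peaks.

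The Nr3c1 locus had the lowest PPARγ and CBP ratios of the 4, on few tags. Its highest PPARγ peak, chr18:39712819-39713005, ranked 2540 and counted 34 PPARγ tags with rosiglitazone and 48 in DMSO, a ratio of 0.670 (0.418 to 1.06). It was also the lowest ratio of the locus among peaks with at least 20 tags. In the C/EBPα peak chr18:39712960-39713190, which overlaps it by 46 bp, PPARγ counted 42 tags with rosiglitazone and 31 in DMSO, a ratio of 1.28 (0.786 to 2.11). The side of 1 on which this site falls therefore depends on which peak bounds are used. The highest PPARγ ratio was at chr18:39650677-39650863, with 33 tags with rosiglitazone and 9 in DMSO, 3.47 (1.62 to 8.24), and MED1 there was 12 tags with rosiglitazone and 5 in DMSO, 5.26 (1.72 to 19.0).

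C/EBPα was higher with rosiglitazone over the 11 Nr3c1 C/EBPα peaks, with 200 tags with rosiglitazone and 84 in DMSO and a ratio of 1.37 (1.06 to 1.79). Relative to the rest of the list this was 1.36 (1.05 to 1.75), and without the peak with the most tags 1.41 (1.07 to 1.86). The highest of them by score, chr18:39639903-39640133, held 31 tags with rosiglitazone and 8 in DMSO, 2.24 (1.01 to 5.63), and was the only C/EBPα member whose interval lay wholly above 1, where 7.95% of the list did. At chr18:39601976-39602206 the ratio was 2.88 (0.966 to 11.6), the highest among peaks with at least 20 tags, and at chr18:39712960-39713190 it was 1.11 (0.563 to 2.30), the lowest among them. Over all 11 peaks, 3 were lower with rosiglitazone. The C/EBPα ratio at Nr1h3 was 0.433 of that at Nr3c1 (0.323 to 0.580). Over the 4 loci 5 of 41 C/EBPα members were at least 2-fold higher and 3 at least 2-fold lower, where 15.9% and 9.25% of the list were. The interval lay wholly below 1 at 2 members, the strong Nr1h3 peaks, where 6.23% of the list did.

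Both coactivators were sparse at the members. Of the 42 PPARγ members, 8 had at least 20 MED1 tags, and 8 had at least 20 CBP tags. In rosiglitazone 1 tag is 7.65 deposited units for MED1 and 6.06 for CBP. A difference of 1 tag against 0, as for MED1 at chr18:39712819-39713005, is thus enough to pass 2-fold in the counts that follow. MED1 was at least 2-fold higher with rosiglitazone at 18 of the 42 PPARγ members and at least 2-fold lower at 4, where 29.8% and 22.5% of the list were. CBP was at least 2-fold higher at 8 and at least 2-fold lower at 13, where 23.6% and 25.1% of the list were.

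MED1 and CBP ratios lay on opposite sides of 1 at the Nr3c1 PPARγ peaks. MED1 counted 18 tags with rosiglitazone and 9 in DMSO, a ratio of 4.38 (1.87 to 11.1), but 12 of those with rosiglitazone and 5 of those in DMSO were at 1 peak, chr18:39650677-39650863, and without it 6 tags with rosiglitazone and 4 in DMSO gave 3.28 (0.779 to 15.8). CBP counted 7 tags with rosiglitazone and 43 in DMSO, a ratio of 0.447 (0.170 to 1.00), which was 0.324 of the rest of the list (0.146 to 0.720) and 0.355 without the same peak (0.137 to 0.920). At the 11 C/EBPα peaks of the locus CBP was 17 tags with rosiglitazone and 68 in DMSO, a ratio of 0.686 (0.378 to 1.18), or 0.547 of the rest of the list (0.321 to 0.930). Without chr18:39650598-39650828 the CBP value at the C/EBPα peaks was 0.619 of the rest of the list (0.349 to 1.10). Both coactivators rest on few tags here. The CBP ratio at the PPARγ peaks of Rxra was 4.49 times that of Nr3c1 (1.82 to 11.1), and at Nr1h3 5.72 times (2.20 to 14.9). The list had ratios of 1.63 for MED1 and 1.38 for CBP at PPARγ peaks. Per unit of PPARγ, summed MED1 at Nr3c1 was 1.11 with rosiglitazone and 0.282 in DMSO, where the whole list had 1.40 with rosiglitazone and 1.31 in DMSO. Summed CBP per unit of PPARγ at Nr3c1 was 0.343 with rosiglitazone and 0.851 in DMSO, where the list had 0.761 with rosiglitazone and 0.842 in DMSO. The units of different antibodies are not comparable in amount, so only the treatments and loci are set side by side.

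Grouped by sharing, and not by locus, the 42 PPARγ members had similar summed PPARγ ratios, but 1 site weighs heavily among the shared members. The 14 shared members held 792 tags with rosiglitazone and 395 in DMSO, a ratio of 1.90 (1.68 to 2.14). The 28 others held 598 tags with rosiglitazone and 300 in DMSO, 1.88 (1.64 to 2.17). Of the shared tags, 433 with rosiglitazone and 198 in DMSO were at the first Nr1h3 site, so the shared ratio rests largely on it. In the whole list the shared peaks had 1.63 and the others 1.44. MED1 had a ratio of 2.80 (2.22 to 3.52) at the shared members and 1.57 (1.23 to 1.99) at the others, where the list had 1.61 and 1.64. The shared members hold both main Nr1h3 sites, each with 55 of their 175 MED1 tags in rosiglitazone. In DMSO these sites held 37 and 52 of the 137 MED1 tags. Their MED1 ratios, 3.25 and 2.32, lay on either side of that of the shared members. Peak by peak, the median log2 ratio of MED1 was 1.48 at the shared members and 0.33 at the others. CBP was 1.30 (0.954 to 1.76) at the shared members and 1.42 (1.06 to 1.89) at the others.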

How the data were processed

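ChIP-seq of PPARγ, C/EBPα, MED1 and CBP in 3T3-L1 adipocytes treated with rosiglitazone or DMSO was used, as 2 lists of peaks with a value per antibody and treatment at each peak. The submitters' processing notes name Bowtie, HOMER, edgeR and FastQC, with mm9 as the build. Versions, settings and how replicates entered peak calling are not stated there. The deposited values are a tag signal scaled per library by the authors. The peak score and the focus ratio, a fraction, are 1 value per peak deposited by the authors, and the score ranked peaks within a list. Input and RNA polymerase II samples were not used here.

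In all 8 signal columns of both lists 100.0% of the values above 0 were whole multiples of a step, within 0.02 steps, so tags were recovered. If the authors scaled to 10 M tags, which no file header states, the rosiglitazone and DMSO libraries had 12.0 and 11.4 M tags for PPARγ, 7.85 and 4.53 M for C/EBPα, 1.31 and 2.86 M for MED1, and 1.65 and 4.52 M for CBP. For MED1 the rosiglitazone column bears the drug's development code, BRL. A PPARγ column may hold 1 or both labelled samples. With 1 column per factor and treatment no count model could be fitted and no gene or peak is called by a test.

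Ratios are rosiglitazone over DMSO of summed values, with exact 95% Clopper-Pearson intervals of the tags. The ratio to the rest of a list is an odds ratio with a 95% interval on the log scale, and shares have exact binomial intervals. Fold counts use log2(value + 1). A library at 0 tags was set at 3 tags for a bound. Peaks share a site with at least 1 bp in common. In each window and list, the peaks named are the highest by score and those with the highest and lowest ratio among peaks with at least 20 tags of the factor, plus PPARγ peaks with at least 20 MED1 or CBP tags; a peak named outside this rule is said to be so, or stands beside a named peak that overlaps it. Members, lists and motifs were chosen with earlier results of these data known. Promoter sequences and gene order are from RefSeq (GRCm38.p6). Scripts were tested on simulated data and used Python 3.11.15, numpy 2.4.6, scipy 1.17.1, pandas 2.3.3 and matplotlib 3.10.9. Alternatives covered the scaling, the highest peak, the score threshold, the window bounds, the pseudocount, a tag minimum and the overlap rule.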

Additional observations from a re-analysis of the deposited data

How the results depend on the processing

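No paired analysis was possible because each factor has 1 column per treatment and the columns name no replicate, and no replicate could be left out. Over 44 leading results, 158 of 192 alternatives stayed within the counting interval, or within 1.5 times for a count, and 34 moved. No ratio whose interval excluded 1 changed direction, but 7 alternatives put a ratio whose interval held 1 on its other side. These were PPARγ at Nr3c1 (0.901 by the median over peaks, besides the list and C/EBPα-only values given next), C/EBPα at Rxra (0.924 without the highest peak, 0.914 in the PPARγ windows) and CBP at Rara (0.925 by the median, and its list value). Dividing by the rest of the list took the PPARγ ratio to 1.45 at Rxra, 1.24 at Rara, 1.41 at Nr1h3 and 0.727 at Nr3c1, MED1 to 1.24, 1.09 and 1.48 at Rxra, Rara and Nr1h3, and CBP at Rara to 0.856. Dividing by C/EBPα peaks without PPARγ took PPARγ to 1.51, 1.29, 1.46 and 0.755 at the 4 loci in that order. Without the highest peak, Nr1h3 had 2.52 for PPARγ and 1.25 for CBP. The median over peaks in place of the ratio of sums gave 0.643 for C/EBPα at Rara, 1.09 and 1.22 for MED1 at Rxra and Nr1h3, and 1.00 and 1.15 for CBP at Rxra and Nr1h3. Peaks in the upper part of the scores gave 3.28 for MED1 at Rxra and 100.0% shared at Nr1h3. Centring log2 ratios on the list median left 4 peaks at least 2-fold higher in PPARγ at Rara and 1 at Nr1h3, and gave 1 at least 2-fold lower at each of Rxra, Rara and Nr3c1. For C/EBPα, centring left 0 higher at Rara. A pseudocount of 5 left 0 higher at Rara, 1 higher at Nr3c1, 1 lower at Rxra and 0 lower at Nr1h3. A minimum of 20 tags left 0 higher and 1 lower at Rxra and 0 lower at Nr1h3. For these moves the cause was not tested. Of 183 alternatives on single peaks, 2 moved, and centring put 3 on the other side of 0: 2 Rxra peaks (log2 ratio 0.05 to -0.45 and 0.31 to -0.19) and 1 Rara peak (0.37 to -0.14). Depth limits MED1 and CBP most: at most Nr3c1 peaks they held only a few tags.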

Other observations

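At the 27 C/EBPα members that share no base with a listed PPARγ peak, PPARγ was still counted and was higher with rosiglitazone. These peaks held 199 PPARγ tags with rosiglitazone and 107 in DMSO, a ratio of 1.76 (95% counting interval 1.38 to 2.25), where C/EBPα at the same peaks was level at 1.03 (0.869 to 1.23). Relative to the rest of the C/EBPα list the PPARγ ratio was 1.11 (0.877 to 1.40), and the shared members had 1.93 (1.71 to 2.18). Some of these sites, picked out after their values were seen, had PPARγ in 1 treatment almost alone. At chr2:27635759-27635989 in the Rxra window PPARγ counted 16 tags with rosiglitazone and 2 in DMSO, 7.56 (1.78 to 67.8), and at chr11:98826209-98826439 in the Rara window 12 tags with rosiglitazone and 1 in DMSO, 11.3 (1.68 to 485). Of the 27 members, 2 had at least 20 PPARγ tags, and both lie directly beside a listed PPARγ peak. At chr2:27527374-27527604 PPARγ counted 17 tags in each treatment, 0.945 (0.454 to 1.97). At chr18:39639903-39640133 it counted 17 tags with rosiglitazone and 18 in DMSO, 0.893 (0.432 to 1.84). Whether their tags belong to the listed PPARγ peaks was not tested.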
